A study of Penicillium oxalicum with 12 samples.

Results

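The genes described here are those of the peroxisome and of fatty acyl-CoA metabolism in the filamentous fungus Penicillium oxalicum. A gene was taken when the deposited expression table gives it 1 distinct KEGG orthology name and that name contains peroxin, peroxisom, acyl-CoA, carnitine, enoyl-CoA or acetyl-CoA acyltransferase. This gave 74 members of the 9931 genes in the table: 19 peroxins, 8 other peroxisome proteins, and 47 acyl-CoA enzymes and carriers. Genes at 1 FPKM or more in 3 or more of the 12 libraries were tested, which left 73 members and 9431 genes in all. The member left out was PDE_06205, described as a mitochondrial trans-2-enoyl-CoA reductase, at 0.48 FPKM or less in each library. FPKM counts fragments per kilobase of transcript relative to all fragments mapped in that library.

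RNA of mycelia was profiled in 4 strains with 3 libraries each. DlaeA lacks laeA, a regulator of secondary metabolism and development in filamentous fungi. In H2BK123A lysine 123 of histone H2B is replaced by alanine, in H2BK131A lysine 131 is replaced by alanine, and WT is the wild type 114-2. All 4 strains were precultured for 22 h at 30 °C with 2% glucose and were harvested 24 h after transfer of the washed mycelia to Mandel's medium with 2% glucose. The study asked how each mutation changes gene expression. The labels say neither whether the 3 libraries of a strain come from separate cultures nor how many transformants each mutant stands for, so the spread behind each p-value is that of these libraries and may be technical. No description in the table names laeA, so its deletion was not checked, and a point mutation does not show in FPKM.

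Peroxisomes are single-membrane organelles in which fungi shorten fatty acids by beta-oxidation, a cycle of oxidation, hydration, a second oxidation and thiolytic cleavage that releases acetyl-CoA. Peroxins build the organelle: some insert its membrane proteins, and others bind newly made enzymes in the cytosol, dock at the membrane and are recycled by ubiquitination and ATP-driven extraction. Acetyl-CoA leaves by way of carnitine esters or the glyoxylate cycle, and in filamentous fungi peroxisomes also serve penicillin synthesis and give rise to the Woronin bodies that plug damaged septa. The name search also caught genes outside this route. Of the 47 enzymes and carriers, 11 are described as fatty acid elongation enzymes, ceramide synthases or mitochondrial trans-2-enoyl-CoA reductases, which belong to lipid synthesis, and they are given apart. A name means only that the table describes the gene so.

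FPKM summed to 709484 to 764699 per library over all genes, and without counts in the table the depth is unknown. The median SD of a gene, in log2 units, was 0.111 to 0.124 within the mutants and 0.223 within WT. WT 2 stood apart from WT 1 and WT 3, so counts without WT 2 are given where they matter. Differences are log2 differences of FPKM + 1 with their SE, fitted with limma over all tested genes in all 12 libraries, and a gene was called higher or lower at a Benjamini-Hochberg adjusted p under 0.05. This scale understates the change of low genes. The median tested gene itself was higher than in WT by 0.27 in DlaeA, 0.18 in H2BK123A and 0.13 in H2BK131A, and median ratio scaling of the libraries took these medians to 0.02, -0.02 and -0.03. Group medians are therefore also given relative to the median of all tested genes. In these bulk mycelia, fewer cells of a type and less RNA per cell cannot be told apart. The 3 comparisons with WT share the WT libraries.

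Together the 74 members made up 0.748% to 0.751% of the FPKM of the DlaeA libraries, 0.661% to 0.754% in H2BK123A, 0.347% to 0.402% in H2BK131A and 0.35% to 0.461% in WT. The DlaeA and H2BK123A libraries were all above the H2BK131A and WT libraries, and the highest WT share was that of WT 2. The FPKM of the 19 peroxins summed to 964, 975 and 959.7 in DlaeA, 874, 910.3 and 849.7 in H2BK123A, 653, 559 and 570.4 in H2BK131A, and 547, 649 and 520.4 in WT. The H2BK131A and WT sums overlapped. The sum over the 26 enzymes of fatty acid activation and breakdown was 3348, 3192 and 3244 FPKM in DlaeA, 2886, 3182 and 2795 in H2BK123A, 1430.4, 1202 and 1211 in H2BK131A, and 1221, 1814 and 1189 in WT. The acyl-CoA synthetase gene PDE_03757 gave 1165, 679.7 and 704 of the DlaeA sums and 161, 177 and 170.1 of the H2BK123A sums. The lead of DlaeA over H2BK123A in this sum depends on that gene.

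In DlaeA most of these genes stood above WT, and the rise ran through both the peroxins and the breakdown enzymes, while the elongation and ceramide enzymes were mostly lower. Of the 73 tested members 55 were called, 48 higher and 7 lower, where 69.9% of all tested genes were called, 46.3% higher and 23.6% lower. All 3 DlaeA libraries lay above all WT libraries for 46 members and below them for 9, against 46.2% and 24.1% of all tested genes (70.3% in either direction). The members' median difference was 0.64, or 0.37 relative to all genes. With median ratio scaling 37 were higher and 12 lower, with quantile scaling 42 and 12, and without WT 2 52 and 9. The counts over all 9431 tested genes moved as well. They were 3212 higher and 3154 lower with median ratio scaling, 3586 and 2813 with quantile scaling, and 4710 and 2216 without WT 2.

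By group, 17 of the 19 peroxins rose in DlaeA, with a median of 0.68 (0.41 relative to all genes). None fell in limma, also at an unadjusted p under 0.05, since the lowest peroxin difference was 0.06. The counts were 13 and 0 with median ratio scaling. Among the other peroxisome proteins 6 of 8 rose and none fell. The 26 activation and breakdown enzymes had 18 rises and 1 fall, with a median of 0.83 (0.56 relative to all genes). The 10 tested elongation, ceramide and mitochondrial synthesis enzymes had 1 rise and 6 falls, with a median of -0.48 (-0.75 relative to all genes). Markers of asexual sporulation moved in both directions in DlaeA: of 4 such genes 3 rose and 1 fell. The rises include PDE_00079, described as BrlA, at 1.51, 1.64 and 3.26 FPKM in DlaeA and 0.58, 0.15 and 0.43 in WT. Outside DlaeA this gene reached 1 FPKM only in H2BK123A 3. It thus passed the filter through the strain in which it is high, so its call there is no independent evidence. Among the rises BrlA, PDE_00087, a regulator that starts conidiophore development, was at 412, 449 and 444 FPKM in DlaeA and 5.67, 19.7 and 28.9 in WT. The fall was that of PDE_01188, described as spore wall maturation protein DIT1. It was at 1.02, 0.91 and 0.61 FPKM in DlaeA and 376, 5.93 and 164 in WT (-5.36 ± 1.21, adjusted p = 0.0020). The part of sporulating cells in the DlaeA values was not tested.

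In H2BK123A the peroxins and the breakdown enzymes were again mostly above WT. Of the 73 members 51 were called, 46 higher and 5 lower, where 46.6% of all tested genes were called, 33.5% higher and 13.1% lower. All H2BK123A libraries were above all WT libraries for 50 members and below for 5, against 37.6% and 15.1% of all tested genes (52.7% in either direction). The median difference was 0.63, or 0.45 relative to all genes. With median ratio scaling 38 were higher and 13 lower, and with quantile scaling 39 and 11. Over all 9431 tested genes the counts were 2195 higher and 2235 lower with median ratio scaling, and 2209 and 2105 with quantile scaling. The 5 falls were small, and with any 1 library left out 1 to 3 members were called lower. Of the peroxins 15 rose and none fell (12 and 1 with median ratio scaling), with a median of 0.62, or 0.44 relative to all genes. The lowest peroxin difference was -0.12, and none was lower at an unadjusted p under 0.05 in limma. Of the other peroxisome proteins 5 rose and 1 fell, and of the activation and breakdown enzymes 17 rose and 1 fell (median 0.87, relative to all genes 0.69). The synthesis enzymes split into 3 higher and 3 lower. Of the 4 sporulation markers none was called in limma in H2BK123A (1, PDE_03008, was lower at an unadjusted p of 0.048).

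H2BK131A differed from WT in both directions, and the members as a whole did so in shares close to those of all tested genes. Of the 73 members 50 were called, 26 higher and 24 lower, where 70.8% of all tested genes were called, 40.6% higher and 30.2% lower. All H2BK131A libraries were above all WT libraries for 23 members and below for 24, against 40.7% and 29.9% of all tested genes (70.5% in either direction). The median difference was 0.050, and -0.08 relative to all genes. The median turned to -0.12 with median ratio scaling (19 higher, 31 lower) and to -0.036 with quantile scaling (23 higher, 30 lower). It was -0.017 without H2BK131A 1 and -0.079 without WT 3. Over all 9431 tested genes, 3326 were higher and 3542 lower with median ratio scaling, and 3396 and 3318 with quantile scaling. Of the peroxins 5 rose and 3 fell, a split that depended on the libraries and the scaling: 8 and 4 without WT 2, 2 and 7 with median ratio scaling, and between 2 and 8 higher and 1 and 5 lower when any 1 library was left out. Of the other peroxisome proteins 3 rose and 4 fell. The breakdown enzymes leaned lower, with 8 rises and 11 falls and a median of -0.14 (-0.27 relative to all genes), and 5 of the 8 acyl-CoA oxidases and dehydrogenases fell. That median was -0.24 without H2BK131A 1, -0.35 without WT 1, -0.058 without WT 2 and -0.30 without WT 3, and -0.32 and -0.36 with median ratio and quantile scaling. Relative to all genes it moved most without WT 1, to -0.46. The synthesis enzymes had 6 rises and 3 falls (median 0.41, relative to all genes 0.28). Of the 4 sporulation markers 2 fell in H2BK131A and none rose. BrlA, PDE_00087, was at 1.9, 2.06 and 2.06 FPKM. PDE_03008, described as FlbD, was at 5.48, 3.89 and 6.49 FPKM, against 63.8, 98.2 and 138 in WT. The DIT1 gene PDE_01188 was at 92.7, 537 and 420 FPKM, against 376, 5.93 and 164 in WT, and was not called. The part of sporulating cells in the H2BK131A values was not tested either.

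**Figure D1:**
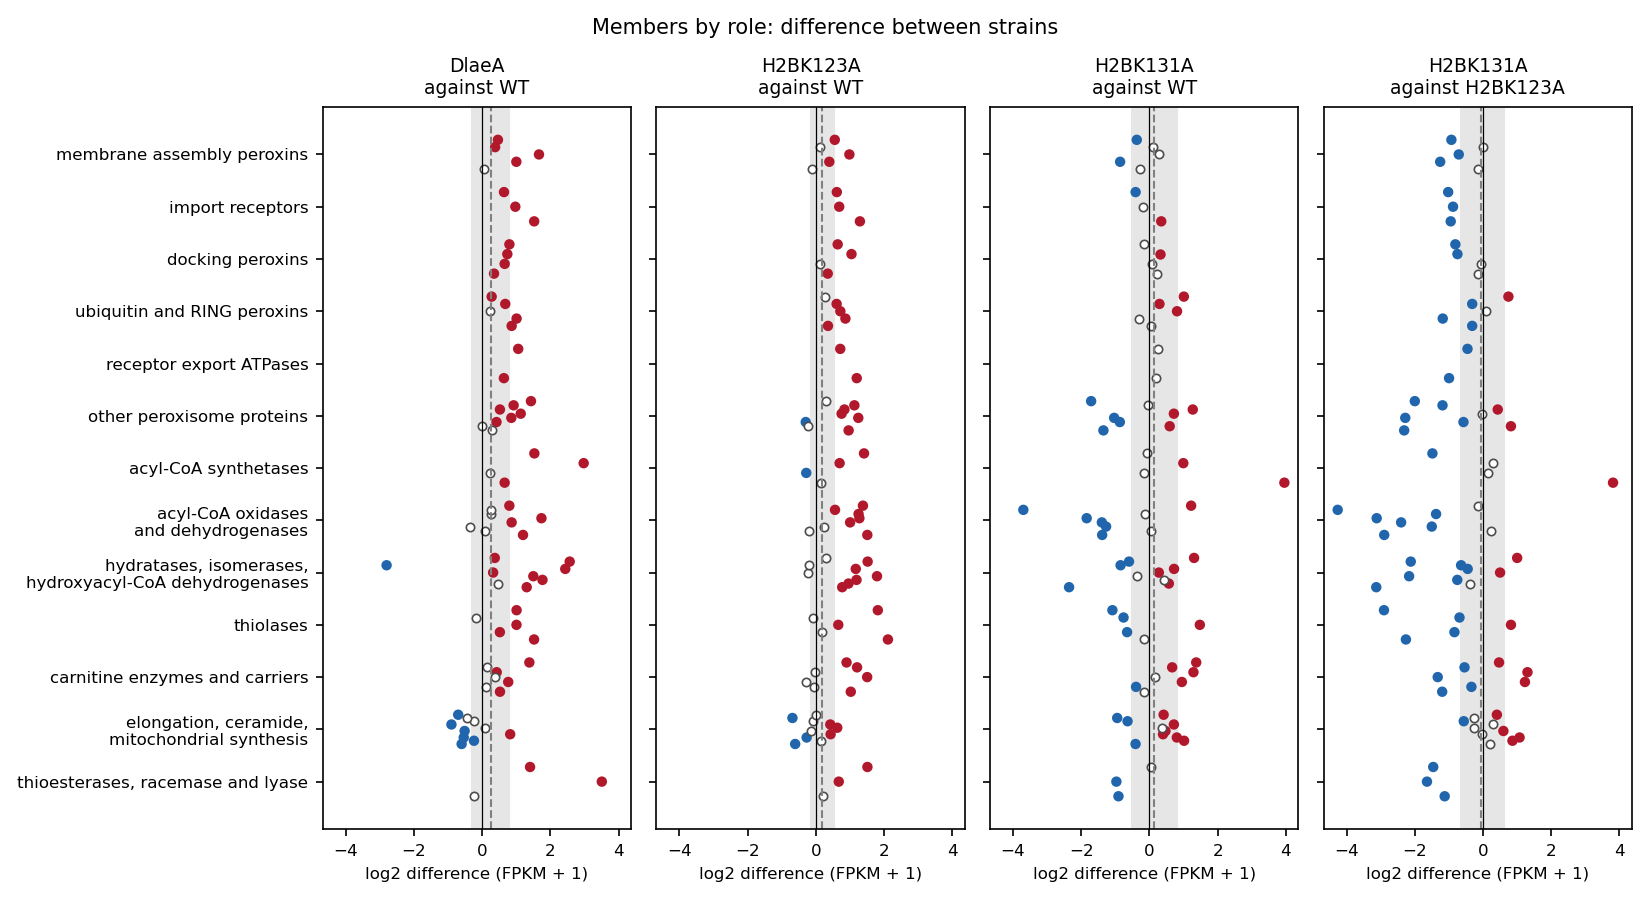
Log2 difference of FPKM + 1 for each of the 73 tested members, by role, in 4 comparisons; red points were called higher, blue points lower and open points not called, the dashed line is the median and the grey band the range between the quartiles of all tested genes. In DlaeA and H2BK123A none of the 19 peroxins fell (1 did in H2BK123A with median ratio scaling), and in H2BK131A 5 of the 8 acyl-CoA oxidases and dehydrogenases fell. Of all tested genes 23.6% were called lower in DlaeA, 13.1% in H2BK123A and 30.2% in H2BK131A.

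The 2 histone mutants were also set against each other. Of the 73 members 57 differed, 14 higher and 43 lower in H2BK131A than in H2BK123A, where 68.7% of all tested genes were called, 32.9% higher and 35.8% lower. The libraries did not overlap for 17 members above and 44 below, against 37.3% and 41.2% of all tested genes (78.5% in either direction). The median was -0.56, and -0.51 relative to all genes. Of the peroxins 1 was higher and 13 lower, and of the 26 activation and breakdown enzymes 4 were higher and 17 lower (median -0.80). The synthesis enzymes went the other way, with 4 higher and 1 lower. H2BK131A against DlaeA gave 15 members higher and 45 lower, where 36.2% and 41.3% of all tested genes were called (77.5% in either direction), and 15 of the 19 peroxins were lower. The libraries did not overlap for 17 members above and 45 below, against 39.3% and 44.2% of all tested genes (83.4% in either direction). H2BK123A against DlaeA gave 19 higher and 18 lower, with 28.1% and 33.1% of all tested genes called (61.2% in either direction) and a median of -0.06. The libraries did not overlap for 25 members above and 27 below, against 33.5% and 40.5% of all tested genes (74% in either direction).

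Peroxins 3, 16 and 19 place proteins in the peroxisomal membrane, with peroxin-19 as the soluble carrier. PDE_05037, the peroxin-19 gene, had an FPKM of 66.5, 69.7 and 59.3 in DlaeA, 36.8, 43.7 and 40.4 in H2BK123A, 28.5, 21.6 and 22.9 in H2BK131A and 18.4, 25.9 and 16.3 in WT. The DlaeA libraries were the highest, the H2BK123A libraries came next, and the H2BK131A and WT libraries overlapped. It rose in DlaeA (1.67 ± 0.16, adjusted p = 2.8e-06) and in H2BK123A (0.99 ± 0.16, adjusted p = 5.4e-04), and its difference in H2BK131A was 0.27 ± 0.16, adjusted p = 0.15. PDE_02355, one of a pair of peroxin-16 genes with consecutive locus numbers, had an FPKM of 78, 81.1 and 75.2 in DlaeA, 49.7, 55.4 and 48.1 in H2BK123A, 24.6, 19.4 and 18.7 in H2BK131A and 36.7, 47.3 and 32.8 in WT. All DlaeA libraries were above WT and all H2BK131A libraries below it. PDE_02355 rose in DlaeA (1.00 ± 0.14, adjusted p = 5.6e-05) and H2BK123A (0.40 ± 0.14, adjusted p = 0.036) and fell in H2BK131A (-0.86 ± 0.14, adjusted p = 1.6e-04). Its neighbour PDE_02354, also described as peroxin-16, was not called in any comparison with WT (differences of 0.06 in DlaeA, -0.12 in H2BK123A and -0.27 in H2BK131A). Of the 2 peroxin-3 genes, PDE_09752 rose in DlaeA and H2BK123A and fell in H2BK131A by 0.37 on the log2 scale, and PDE_09293 rose in DlaeA (0.38) and was not called in H2BK123A (0.11) or H2BK131A (0.10).

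The cargo receptors are peroxin-5, which binds the C-terminal import signal of most matrix enzymes, and peroxin-7, which binds an N-terminal signal carried for example by thiolase. PDE_00460, the peroxin-7 gene, had an FPKM of 43.3, 41.9 and 43 in DlaeA, 37.2, 35.5 and 36.2 in H2BK123A, 19.7, 15.6 and 20.1 in H2BK131A and 14.2, 17.5 and 11.5 in WT. The DlaeA and H2BK123A libraries were all above the other 2 strains, and H2BK131A overlapped with WT. It rose in DlaeA (1.52 ± 0.14, adjusted p = 1.6e-06) and H2BK123A (1.29 ± 0.14, adjusted p = 3.1e-05). The H2BK131A difference was smaller and just past the threshold (0.35 ± 0.14, adjusted p = 0.039). Both peroxin-5 genes, PDE_06485 and PDE_09058, rose in DlaeA (0.97 and 0.64) and in H2BK123A (0.69 and 0.62). In H2BK131A PDE_09058 fell (-0.40 ± 0.13, adjusted p = 0.015), and PDE_06485 was not called (-0.19).

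Peroxins 13 and 14 form the docking site for the loaded receptors. PDE_06499, the peroxin-13 gene, had an FPKM of 65, 75 and 66.8 in DlaeA, 88.7, 84.1 and 83.7 in H2BK123A, 52.4, 49.9 and 49.1 in H2BK131A and 37.6, 49.2 and 36.9 in WT. It was highest in the H2BK123A libraries, next in DlaeA, and H2BK131A overlapped with WT 2. It rose in DlaeA (0.74 ± 0.11, adjusted p = 1.1e-04) and in H2BK123A (1.05 ± 0.11, adjusted p = 3.4e-05), and by less in H2BK131A (0.30 ± 0.11, adjusted p = 0.032). The 3 genes described as peroxin-14 all rose in DlaeA, by 0.80 (PDE_08718), 0.66 (PDE_04711) and 0.35 (PDE_04710). PDE_08718 and PDE_04710 rose in H2BK123A as well, and none of the 3 was called in H2BK131A.

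Receptors are recycled after ubiquitination by peroxin-4, a conjugating enzyme, and by the RING peroxins 2, 10 and 12. PDE_02796, the peroxin-2 gene, had an FPKM of 44.7, 39.9 and 40.1 in DlaeA, 38.4, 41 and 33.6 in H2BK123A, 18.6, 14.3 and 15.4 in H2BK131A and 19, 25.1 and 17.1 in WT. DlaeA and H2BK123A were above WT in every library, and H2BK131A overlapped with WT 3. PDE_02796 rose in DlaeA (1.01 ± 0.14, adjusted p = 7.1e-05) and H2BK123A (0.87 ± 0.14, adjusted p = 6.2e-04) and was not called in H2BK131A (-0.31 ± 0.14, adjusted p = 0.072). PDE_07805, a peroxin-12 gene, had an FPKM of 17.3, 15.1 and 16.4 in DlaeA, 15.8, 16.7 and 15.8 in H2BK123A, 26.3, 27 and 29.9 in H2BK131A and 12.1, 15.6 and 12.3 in WT. Here the H2BK131A libraries were the highest and those of the other 3 strains lay close together. PDE_07805 rose in H2BK131A (1.01 ± 0.11, adjusted p = 6.3e-06), was higher in H2BK131A than in H2BK123A (0.74 ± 0.11, adjusted p = 8.6e-05), and in DlaeA was at 0.28 ± 0.11, adjusted p = 0.04, a call that several alternatives ended. The other peroxin-12 gene, PDE_07804, rose in DlaeA (0.68), H2BK123A (0.61) and by 0.30 in H2BK131A. The peroxin-4 gene PDE_04611 rose in H2BK123A (0.72) and H2BK131A (0.81) and was not called in DlaeA (0.22), and the peroxin-10 gene PDE_00850 rose in DlaeA (0.86) and H2BK123A (0.36).

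Peroxins 1 and 6 are the ATPases that pull used receptors out of the membrane. PDE_03774, the peroxin-1 gene, had an FPKM of 30.6, 31.1 and 29.9 in DlaeA, 23.8, 25.9 and 22.2 in H2BK123A, 19.3, 14.8 and 17.9 in H2BK131A and 12.3, 17.7 and 13 in WT. The DlaeA libraries were highest, then H2BK123A, and H2BK131A overlapped with WT. It rose in DlaeA (1.06 ± 0.14, adjusted p = 3.4e-05) and H2BK123A (0.72 ± 0.14, adjusted p = 0.0015). PDE_01989, the peroxin-6 gene, had an FPKM of 26.2, 27.5 and 27.6 in DlaeA, 42.6, 41.2 and 37.8 in H2BK123A, 21.5, 18.4 and 19.7 in H2BK131A and 14.4, 21.1 and 16.3 in WT. It was highest in H2BK123A, and DlaeA was also above all WT libraries. PDE_01989 rose in H2BK123A (1.20 ± 0.13, adjusted p = 2.8e-05) and DlaeA (0.64 ± 0.13, adjusted p = 7.7e-04). Neither ATPase gene was called in H2BK131A, where the differences were 0.26 and 0.21; both were called higher without WT 2.

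**Figure D2:**
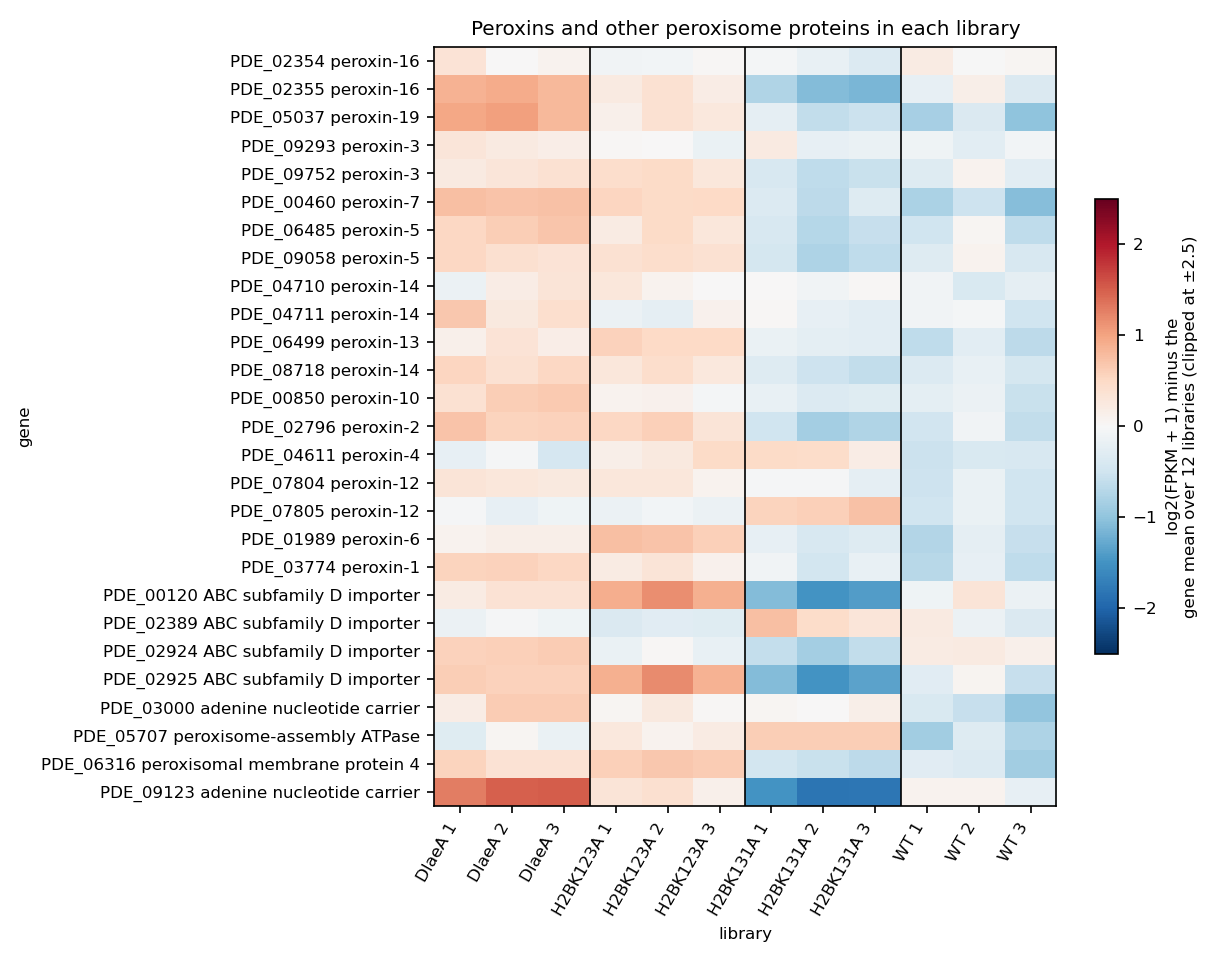
Log2(FPKM + 1) of the 19 peroxins and 8 other peroxisome proteins in each of the 12 libraries, minus the gene's mean over the libraries, on a colour scale clipped at 2.5 on either side. Most rows are red in DlaeA and H2BK123A and blue in H2BK131A and WT, and the peroxin-12 gene PDE_07805 is reddest in H2BK131A.

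DlaeA had the highest mean for 14 of the 19 peroxins, H2BK123A for 3 and H2BK131A for 2. The lowest mean was that of WT for 12 and of H2BK131A for 7. Over all tested genes DlaeA had the highest mean for 36.1%, H2BK123A for 18% and H2BK131A for 32.4%. WT and H2BK131A had the lowest mean for 32.1% and 32.3%. The H2BK123A count of highest means was thus close to its share.

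The other 8 peroxisome proteins include transporters of the peroxisomal membrane. PDE_09123 is described as a peroxisomal adenine nucleotide carrier, a type of protein that brings ATP into the organelle for fatty acid activation. It had an FPKM of 162, 190.4 and 191 in DlaeA, 83.6, 88.6 and 73.2 in H2BK123A, 22.9, 18.1 and 18.3 in H2BK131A and 71.1, 71.1 and 58 in WT. The DlaeA libraries were the highest and the H2BK131A libraries the lowest, with H2BK123A just above WT. PDE_09123 rose in DlaeA (1.43 ± 0.13, adjusted p = 1.4e-06), fell in H2BK131A (-1.71 ± 0.13, adjusted p = 2.5e-07), and in H2BK123A missed the threshold (0.29 ± 0.13, adjusted p = 0.081). A second gene of that description, PDE_03000, rose in all 3 mutants, by 1.13 in DlaeA, 0.76 in H2BK123A and 0.72 in H2BK131A.

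Of the 4 genes described as ATP-binding cassette importers of long-chain fatty acids (subfamily D), 3 fell in H2BK131A: PDE_00120 by 1.35, PDE_02925 by 1.03 and PDE_02924 by 0.87 on the log2 scale. PDE_00120 and PDE_02925 rose in H2BK123A (0.96 and 1.25), and PDE_02925 and PDE_02924 in DlaeA (0.85 and 0.42). PDE_02924 had an FPKM of 14.1, 14.4 and 14.8 in DlaeA, 8.05, 9.31 and 7.89 in H2BK123A, 5.73, 4.65 and 5.63 in H2BK131A and 10.7, 10.9 and 10 in WT. DlaeA was highest and H2BK131A lowest, without overlap, and H2BK123A lay below WT. Its fall in H2BK123A (-0.29 ± 0.11, adjusted p = 0.039) was lost in several alternatives, the per-strain weights among them. The remaining importer gene, PDE_02389, rose in H2BK131A (0.60). The gene described as a peroxisome-assembly ATPase, PDE_05707, rose in all 3 mutants, by 0.52 in DlaeA, 0.84 in H2BK123A and 1.27 in H2BK131A.

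Long-chain acyl-CoA synthetases couple free fatty acids to coenzyme A. PDE_03757 had an FPKM of 1165, 679.7 and 704 in DlaeA, 161, 177 and 170.1 in H2BK123A, 209, 204 and 209.8 in H2BK131A and 79.8, 143 and 98 in WT, and every mutant library was above every WT library. DlaeA 1 stood well above DlaeA 2 and DlaeA 3. It rose in DlaeA (2.98 ± 0.22, adjusted p = 3.3e-07), H2BK131A (0.99 ± 0.22, adjusted p = 0.0017) and H2BK123A (0.70 ± 0.22, adjusted p = 0.023), the H2BK123A call being lost with median ratio and quantile scaling. PDE_00022 had an FPKM of 0.84, 0.49 and 0.52 in DlaeA, 0.21, 0.15 and 0.03 in H2BK123A, 13.3, 15.8 and 15.5 in H2BK131A and 0.06, 0 and 0 in WT. It was near or at 0 outside H2BK131A, and the 3 H2BK131A libraries were all far above the rest. On the log2(FPKM + 1) scale PDE_00022 was higher in H2BK131A by 3.96 ± 0.13. This value depends on the added 1 because WT is listed at 0 in 2 libraries, so no fold is given. PDE_00022 reached 1 FPKM only in the 3 H2BK131A libraries. It thus passed the filter through the strain in which it is high, so its call there is no independent evidence and no p-value is given. It is counted among the 26 rises in H2BK131A. PDE_00022 was also called higher in DlaeA, at under 1 FPKM in each DlaeA library. There it is counted among the 48 rises of members and the 18 of activation and breakdown enzymes.

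PDE_09144 rose in DlaeA (1.53) and in H2BK123A (1.41), with 136 ± 7.69 FPKM in DlaeA, 126 ± 5.8 in H2BK123A, 44.3 ± 2.24 in H2BK131A and 47.2 ± 10.4 in WT (SD, n = 3 each). It was not called in H2BK131A (-0.07). PDE_03756, the gene numbered next to PDE_03757 and described alike, had an FPKM of 46.6, 49.1 and 45.3 in DlaeA, 34, 32.2 and 32.2 in H2BK123A, 39.1, 38.2 and 31.4 in H2BK131A and 41.1, 42.7 and 36.4 in WT. Its 4 strains lay within a narrow range, H2BK123A below WT and DlaeA above it. The fall of PDE_03756 in H2BK123A (-0.28 ± 0.10, adjusted p = 0.043) was lost in several alternatives.

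The 8 acyl-CoA oxidases and dehydrogenases catalyse the first oxidation of the cycle; acyl-CoA oxidases act in peroxisomes, and dehydrogenases are best known from mitochondria. In DlaeA 4 of the 8 rose, in H2BK123A 6 rose, and in H2BK131A 5 fell and 1 rose, with medians relative to all genes of 0.26, 0.95 and -1.46 in that order. Of all tested genes 46.3% rose in DlaeA, 33.5% rose in H2BK123A, and 30.2% fell and 40.6% rose in H2BK131A. The count of rises in DlaeA was close to that share. PDE_08787, an acyl-CoA dehydrogenase, had an FPKM of 142, 159 and 165 in DlaeA, 181, 222 and 174 in H2BK123A, 11.5, 8.08 and 7.89 in H2BK131A and 107, 172 and 117 in WT. The H2BK131A libraries were all far below those of the other 3 strains, among which H2BK123A was highest and DlaeA overlapped with WT. It fell in H2BK131A (-3.69 ± 0.19, adjusted p = 1.2e-08), rose in H2BK123A (0.56 ± 0.19, adjusted p = 0.027) and was not called in DlaeA (0.27 ± 0.19, adjusted p = 0.22).

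PDE_07795, described likewise, had an FPKM of 106, 119 and 113 in DlaeA, 82.2, 77.3 and 85 in H2BK123A, 12, 6.94 and 7.35 in H2BK131A and 24.6, 55.4 and 26.1 in WT, with DlaeA highest, H2BK123A second, and H2BK131A below every WT library. WT 2 was higher than WT 1 and WT 3. PDE_07795 rose in DlaeA (1.74 ± 0.27, adjusted p = 1.1e-04) and H2BK123A (1.28 ± 0.27, adjusted p = 0.0024) and fell in H2BK131A (-1.84 ± 0.27, adjusted p = 6.3e-05). PDE_05566 had an FPKM of 483, 353 and 339.7 in DlaeA, 367, 532 and 399.9 in H2BK123A, 91.9, 73.7 and 76.1 in H2BK131A and 199, 248 and 193 in WT. DlaeA and H2BK123A overlapped above WT, and H2BK131A lay below it. PDE_05566 rose in DlaeA (0.86 ± 0.18, adjusted p = 0.0011) and H2BK123A (1.01 ± 0.18, adjusted p = 9.5e-04) and fell in H2BK131A (-1.39 ± 0.18, adjusted p = 2.5e-05).

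Another dehydrogenase, PDE_01207, had the same directions, with differences of 1.20 in DlaeA, 1.51 in H2BK123A and -1.38 in H2BK131A. PDE_09342 instead rose in all 3 mutants (0.80 in DlaeA, 1.38 in H2BK123A and 1.22 in H2BK131A). PDE_08009 rose in H2BK123A (1.25) and was not called in DlaeA or H2BK131A. Of the 2 genes described as acyl-CoA oxidases, PDE_05098 fell in H2BK131A (-1.27 ± 0.22, adjusted p = 2.3e-04) and PDE_02167 was not called in any of the 3, with WT values of 59.1, 21.1 and 40.7 FPKM that spanned those of every mutant.

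**Figure D3:**
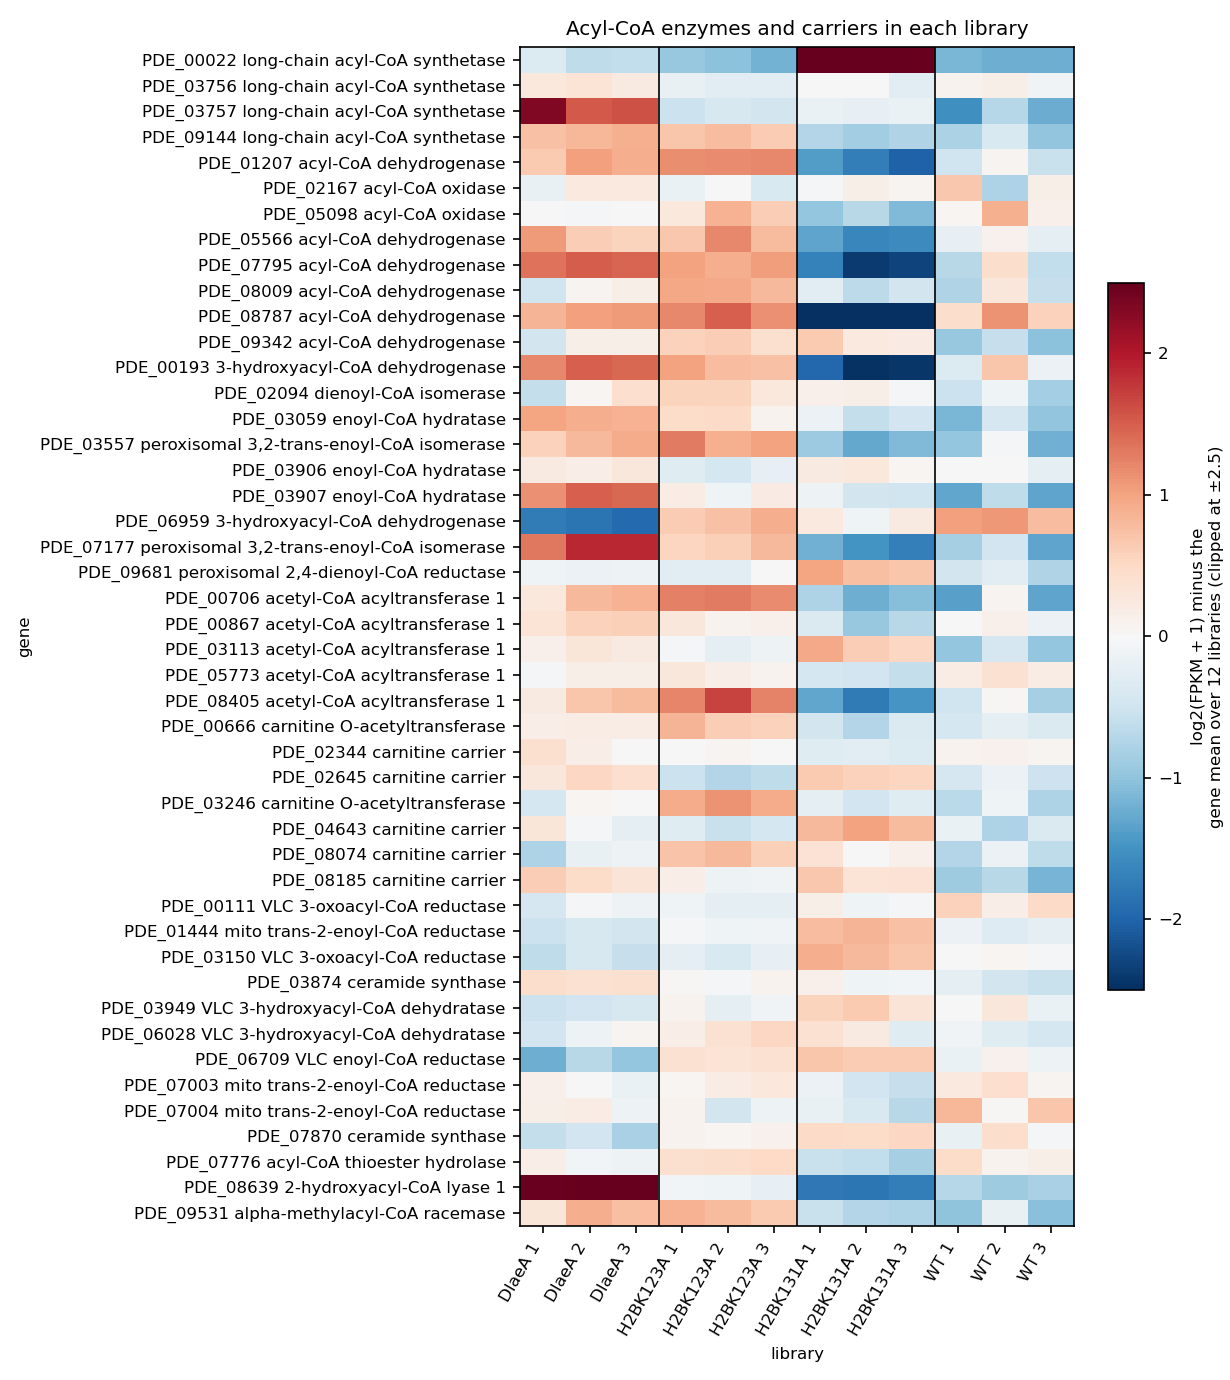
Log2(FPKM + 1) of the 46 tested acyl-CoA enzymes and carriers in each of the 12 libraries, minus the gene's mean over the libraries, on a colour scale clipped at 2.5 on either side. PDE_08639 stands out in the 3 DlaeA libraries and PDE_00022 in the 3 H2BK131A libraries, and PDE_08787 and PDE_00193 are deepest blue in H2BK131A.

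The next steps of the cycle hydrate the double bond and oxidise the hydroxyl group, and auxiliary isomerases and reductases handle unsaturated chains. In DlaeA 7 of these 9 genes rose and 1 fell, in H2BK123A 6 rose, and in H2BK131A 4 rose and 3 fell (2 and 4 with median ratio scaling). Of all tested genes 46.3% rose and 23.6% fell in DlaeA, and 33.5% and 13.1% in H2BK123A. In H2BK131A the shares were 40.6% and 30.2%, and the H2BK131A counts were close to them. PDE_07177, a peroxisomal 3,2-trans-enoyl-CoA isomerase, which shifts double bonds into place for the hydratase, had an FPKM of 26.5, 40 and 39.7 in DlaeA, 15.1, 15.6 and 18.5 in H2BK123A, 3.82, 2.93 and 2.37 in H2BK131A and 5.25, 6.93 and 3.46 in WT. The DlaeA libraries were highest and the H2BK123A libraries next, both above WT, while H2BK131A overlapped with WT. PDE_07177 rose in DlaeA (2.57 ± 0.22, adjusted p = 1.1e-06) and H2BK123A (1.52 ± 0.22, adjusted p = 2.7e-04) and was called lower in H2BK131A (-0.60 ± 0.22, adjusted p = 0.03). A second isomerase of that name, PDE_03557, had an FPKM of 57.1, 66.9 and 72.4 in DlaeA, 95, 70.6 and 76.6 in H2BK123A, 19.6, 15 and 17 in H2BK131A and 18.8, 37.2 and 15.9 in WT. DlaeA and H2BK123A were above all WT libraries and overlapped with each other, and WT 2 was higher than WT 1 and WT 3. PDE_03557 rose in H2BK123A (1.79 ± 0.25, adjusted p = 2.0e-04) and DlaeA (1.50 ± 0.25, adjusted p = 2.3e-04), and in H2BK131A its difference was -0.37 ± 0.25, adjusted p = 0.2.

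Enoyl-CoA hydratases add water to the double bond. PDE_03907 had an FPKM of 198, 253 and 244 in DlaeA, 102, 82.8 and 103 in H2BK123A, 81.4, 65.1 and 63.4 in H2BK131A and 35.9, 57.5 and 35.1 in WT. All DlaeA libraries stood above the rest, and every mutant library was above every WT library. PDE_03907 rose in DlaeA (2.44 ± 0.19, adjusted p = 4.2e-07), H2BK123A (1.17 ± 0.19, adjusted p = 4.8e-04) and H2BK131A (0.72 ± 0.19, adjusted p = 0.0044). PDE_03059 had an FPKM of 17.3, 16.3 and 16 in DlaeA, 11.8, 11.9 and 8.89 in H2BK123A, 7.4, 5.13 and 5.62 in H2BK131A and 3.23, 5.92 and 3.66 in WT. It was highest in DlaeA, then H2BK123A, and H2BK131A overlapped with WT. PDE_03059 rose in DlaeA (1.77 ± 0.19, adjusted p = 6.5e-06) and H2BK123A (1.19 ± 0.19, adjusted p = 4.4e-04), and in H2BK131A was at 0.44 ± 0.19, adjusted p = 0.054. PDE_03906, next to PDE_03907 in locus number, rose in DlaeA and H2BK131A by 0.32 and 0.28.

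Of the 2 genes described as 3-hydroxyacyl-CoA dehydrogenases, which catalyse the second oxidation, 1 fell most in H2BK131A and the other in DlaeA. PDE_00193 had an FPKM of 90.1, 110.4 and 106 in DlaeA, 78.9, 67.1 and 65.2 in H2BK123A, 9.2, 6.2 and 6.34 in H2BK131A and 30.1, 63.2 and 35.1 in WT. DlaeA and H2BK123A were above WT, and the H2BK131A libraries were far below it. PDE_00193 fell in H2BK131A (-2.35 ± 0.23, adjusted p = 2.9e-06) and rose in DlaeA (1.31 ± 0.23, adjusted p = 3.8e-04) and H2BK123A (0.77 ± 0.23, adjusted p = 0.018). PDE_06959 had an FPKM of 0.61, 0.54 and 0.42 in DlaeA, 7.48, 8.09 and 9.15 in H2BK123A, 5.47, 4.02 and 5.34 in H2BK131A and 10.1, 10.6 and 8.28 in WT. The DlaeA libraries were under 1 FPKM, and those of the other 3 strains were all higher. PDE_06959 fell in DlaeA (-2.80 ± 0.14, adjusted p = 9.1e-09) and, by less, in H2BK131A (-0.84 ± 0.14, adjusted p = 1.7e-04), and was not called in H2BK123A (-0.20 ± 0.14, adjusted p = 0.25). PDE_09681, a peroxisomal 2,4-dienoyl-CoA reductase for polyunsaturated chains, had an FPKM of 20.4, 20 and 20.4 in DlaeA, 18.3, 18.1 and 22 in H2BK123A, 45.1, 38.4 and 36.5 in H2BK131A and 15.9, 18 and 12.8 in WT. The H2BK131A libraries were above all others, and those of DlaeA and H2BK123A lay close together. PDE_09681 rose in H2BK131A (1.31 ± 0.13, adjusted p = 3.0e-06) and in DlaeA (0.37 ± 0.13, adjusted p = 0.024), and was not called in H2BK123A (0.31 ± 0.13, adjusted p = 0.073).

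Acetyl-CoA acyltransferase, or thiolase, cuts off acetyl-CoA at the end of each turn. Of the 5 thiolase genes 4 rose in DlaeA, 3 rose in H2BK123A, and 1 rose and 3 fell in H2BK131A. Of all tested genes 46.3% rose in DlaeA, 33.5% rose in H2BK123A, and 40.6% rose and 30.2% fell in H2BK131A. PDE_00706 had an FPKM of 159, 233 and 245 in DlaeA, 318, 327 and 302 in H2BK123A, 77.3, 56.5 and 63.1 in H2BK131A and 51.1, 139 and 52.4 in WT. H2BK123A was highest, DlaeA second, and H2BK131A lay within the WT range, which WT 2 stretched upward. PDE_00706 rose in H2BK123A (2.12 ± 0.32, adjusted p = 3.2e-04) and DlaeA (1.52 ± 0.32, adjusted p = 0.0011) and was not called in H2BK131A (-0.14 ± 0.32, adjusted p = 0.7). PDE_08405 had an FPKM of 163, 224 and 241 in DlaeA, 324, 446 and 329.8 in H2BK123A, 55.5, 39.8 and 48.9 in H2BK131A and 98.1, 140.5 and 77.1 in WT. It was highest in H2BK123A, then DlaeA, then WT, and lowest in H2BK131A, with no overlap between strains. PDE_08405 rose in H2BK123A (1.82 ± 0.23, adjusted p = 9.7e-05) and DlaeA (1.01 ± 0.23, adjusted p = 0.0019) and fell in H2BK131A (-1.08 ± 0.23, adjusted p = 0.0011). PDE_03113 had an FPKM of 38.3, 43.8 and 41.5 in DlaeA, 34.6, 29.8 and 32.3 in H2BK123A, 68.4, 54.8 and 50.7 in H2BK131A and 17.5, 25.9 and 17.6 in WT. Here every mutant library was above every WT library, H2BK131A most. PDE_03113 rose in H2BK131A (1.48 ± 0.15, adjusted p = 4.5e-06), DlaeA (1.01 ± 0.15, adjusted p = 1.2e-04) and H2BK123A (0.66 ± 0.15, adjusted p = 0.0049). The remaining thiolase genes PDE_00867 and PDE_05773 fell in H2BK131A by 0.65 and 0.76 on the log2 scale, and PDE_00867 rose in DlaeA (0.52).

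**Figure D4:**
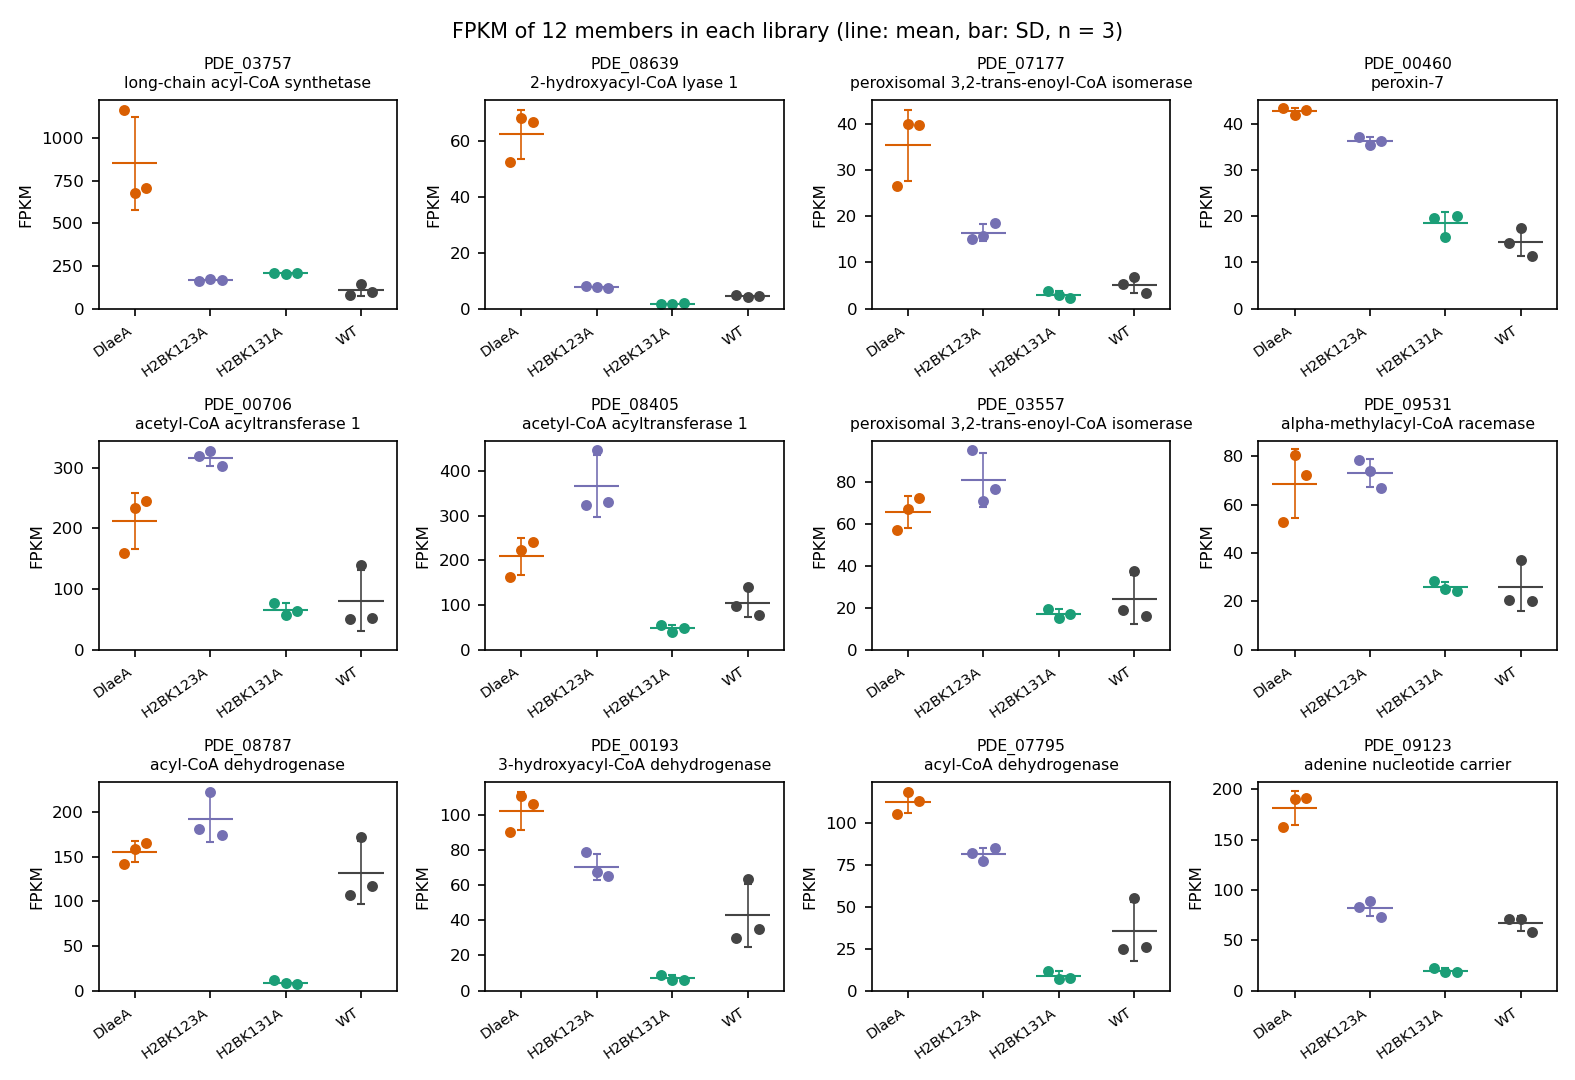
FPKM of 12 members in each library, on a linear axis from 0 with a scale of its own per gene; points are libraries, lines the strain means and bars the SD (n = 3). The thiolase PDE_08405 is highest in H2BK123A, PDE_08639 is at 52.4 FPKM or more in DlaeA and at 8.25 or less in the other strains, and PDE_08787 is at 11.5 FPKM or less in H2BK131A and at 107 or more in the other strains.

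Carnitine O-acetyltransferase makes acetylcarnitine, in which form acetyl units travel to mitochondria, and the mitochondrial carnitine carriers take acylcarnitines across the inner membrane. Both acetyltransferase genes rose in H2BK123A, PDE_03246 by 1.51 and PDE_00666 by 1.03. PDE_00666 also rose in DlaeA (0.52), and neither was called in H2BK131A. Of the 5 genes described as carnitine carriers, PDE_08185 had an FPKM of 14.2, 12.6 and 11.4 in DlaeA, 10.2, 8.06 and 8.36 in H2BK123A, 14.8, 11.5 and 11.8 in H2BK131A and 4.33, 5.14 and 3.44 in WT. Every mutant library was above every WT library. PDE_08185 rose in DlaeA (1.38 ± 0.15, adjusted p = 8.0e-06), H2BK131A (1.37 ± 0.15, adjusted p = 6.7e-06) and H2BK123A (0.90 ± 0.15, adjusted p = 6.5e-04). PDE_04643 had an FPKM of 12.4, 9.45 and 8.13 in DlaeA, 7.74, 6.36 and 6.98 in H2BK123A, 18, 20.8 and 17.7 in H2BK131A and 8.71, 5.4 and 7.47 in WT, highest in H2BK131A without overlap. PDE_04643 rose in H2BK131A (1.29 ± 0.17, adjusted p = 3.5e-05), was called higher in DlaeA (0.43 ± 0.17, adjusted p = 0.044) although the libraries overlapped with WT, and was not called in H2BK123A (-0.01). PDE_02645 rose in DlaeA (0.76) and H2BK131A (0.95), PDE_08074 in H2BK123A (1.21) and H2BK131A (0.67), and PDE_02344 fell in H2BK131A (-0.39).

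PDE_08639 had the largest rise of any member in DlaeA. It is described as 2-hydroxyacyl-CoA lyase 1, which in mammals splits 2-hydroxy fatty acyl-CoA in peroxisomal alpha-oxidation. Its FPKM was 52.4, 68.2 and 66.8 in DlaeA, 8.25, 7.95 and 7.37 in H2BK123A, 1.8, 1.78 and 1.93 in H2BK131A and 4.9, 4.21 and 4.55 in WT. The DlaeA libraries were far above all others, and the 4 strains did not overlap. PDE_08639 rose in DlaeA (3.51 ± 0.12, adjusted p = 3.0e-10) and in H2BK123A (0.67 ± 0.12, adjusted p = 7.8e-04) and fell in H2BK131A (-0.97 ± 0.12, adjusted p = 1.4e-05). PDE_09531, an alpha-methylacyl-CoA racemase, which in mammals converts branched acyl-CoA into the form that beta-oxidation accepts, had an FPKM of 52.8, 80.6 and 72.4 in DlaeA, 78.7, 73.8 and 67 in H2BK123A, 28.4, 25.1 and 24.4 in H2BK131A and 20.6, 37.2 and 20 in WT. DlaeA and H2BK123A overlapped above WT, and H2BK131A lay within the WT range. PDE_09531 rose in H2BK123A (1.51 ± 0.22, adjusted p = 2.3e-04) and DlaeA (1.40 ± 0.22, adjusted p = 1.2e-04), and the H2BK131A difference was 0.05 ± 0.22, adjusted p = 0.83. The acyl-CoA thioester hydrolase PDE_07776, which frees fatty acids from coenzyme A, fell in H2BK131A (-0.91 ± 0.12, adjusted p = 3.6e-05).

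The enzymes of elongation lengthen fatty acids by a reduction, dehydration and second reduction, and ceramide synthases join a fatty acid to a sphingoid base. The very-long-chain enoyl-CoA reductase gene PDE_06709 had an FPKM of 9.43, 14 and 11.5 in DlaeA, 30.5, 30 and 30.5 in H2BK123A, 38.4, 36.8 and 36.9 in H2BK131A and 20.8, 25.2 and 21.2 in WT. DlaeA was below WT in every library, and H2BK123A and H2BK131A were above it. PDE_06709 fell in DlaeA (-0.90 ± 0.13, adjusted p = 5.8e-05) and rose in H2BK131A (0.72 ± 0.13, adjusted p = 2.9e-04) and H2BK123A (0.43 ± 0.13, adjusted p = 0.016). The ceramide synthase gene PDE_07870 had an FPKM of 11.8, 12.8 and 9.96 in DlaeA, 19.5, 19.1 and 19.7 in H2BK123A, 25.8, 25.5 and 26.8 in H2BK131A and 16, 25.4 and 17.6 in WT. DlaeA was again below all WT libraries, H2BK131A was above them, and H2BK123A lay between WT 1 and WT 2. PDE_07870 fell in DlaeA (-0.70 ± 0.15, adjusted p = 0.0013) and rose in H2BK131A (0.42 ± 0.15, adjusted p = 0.025). The second ceramide synthase gene, PDE_03874, rose in all 3 mutants, by 0.82 in DlaeA, 0.44 in H2BK123A and 0.40 in H2BK131A.

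PDE_03150, a very-long-chain 3-oxoacyl-CoA reductase, had an FPKM of 16.6, 19.5 and 17.1 in DlaeA, 22.4, 19.9 and 22.5 in H2BK123A, 50.2, 46.8 and 42.6 in H2BK131A and 25.8, 26.9 and 25.7 in WT. DlaeA and H2BK123A lay below WT, and H2BK131A lay well above it. PDE_03150 rose in H2BK131A (0.80 ± 0.10, adjusted p = 1.6e-05) and fell in DlaeA (-0.54 ± 0.10, adjusted p = 4.3e-04), and its fall in H2BK123A (-0.27 ± 0.10, adjusted p = 0.042) was lost in several alternatives. PDE_00111, with the same description, had an FPKM of 45.4, 58.4 and 55.6 in DlaeA, 56.1, 51.2 and 51 in H2BK123A, 67.7, 56.4 and 58.4 in H2BK131A and 90.7, 68.4 and 84.6 in WT. All mutant libraries were below all WT libraries. PDE_00111 fell in DlaeA (-0.60 ± 0.13, adjusted p = 0.0015), H2BK123A (-0.60 ± 0.13, adjusted p = 0.003) and H2BK131A (-0.41 ± 0.13, adjusted p = 0.015).

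Mitochondrial trans-2-enoyl-CoA reductase works in the fatty acid synthesis of mitochondria. PDE_07004 had an FPKM of 1.8, 1.87 and 1.31 in DlaeA, 1.67, 0.83 and 1.32 in H2BK123A, 1.21, 0.93 and 0.55 in H2BK131A and 3.47, 1.57 and 3.09 in WT. The levels were low, and WT 2 was nearer the mutants than WT 1 and WT 3. PDE_07004 fell in H2BK131A (-0.94 ± 0.23, adjusted p = 0.0027), and its fall in H2BK123A (-0.68 ± 0.23, adjusted p = 0.027) was lost in several alternatives. A further gene of that name, PDE_01444, rose in H2BK131A (1.02 ± 0.08, adjusted p = 5.7e-07) and was called lower in DlaeA (-0.24).

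Members with the same name and consecutive locus numbers formed 7 pairs. The values within a pair could lie apart. In DlaeA PDE_03757 rose by 2.98 while PDE_03756 was at 0.23, PDE_03907 rose by 2.44 and PDE_03906 by 0.32, and the peroxin-16 gene PDE_02355 rose by 1.00 while PDE_02354 was at 0.06. In H2BK123A the importer gene PDE_02925 was at 1.25 and PDE_02924 at -0.29. In H2BK131A the peroxin-12 gene PDE_07805 rose by 1.01 and PDE_07804 by 0.30. The difference within a pair was not tested. Sequences are not used here, so it was not checked whether a pair is 2 genes, near-identical copies or 1 gene model in 2 parts.

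**Figure D5:**
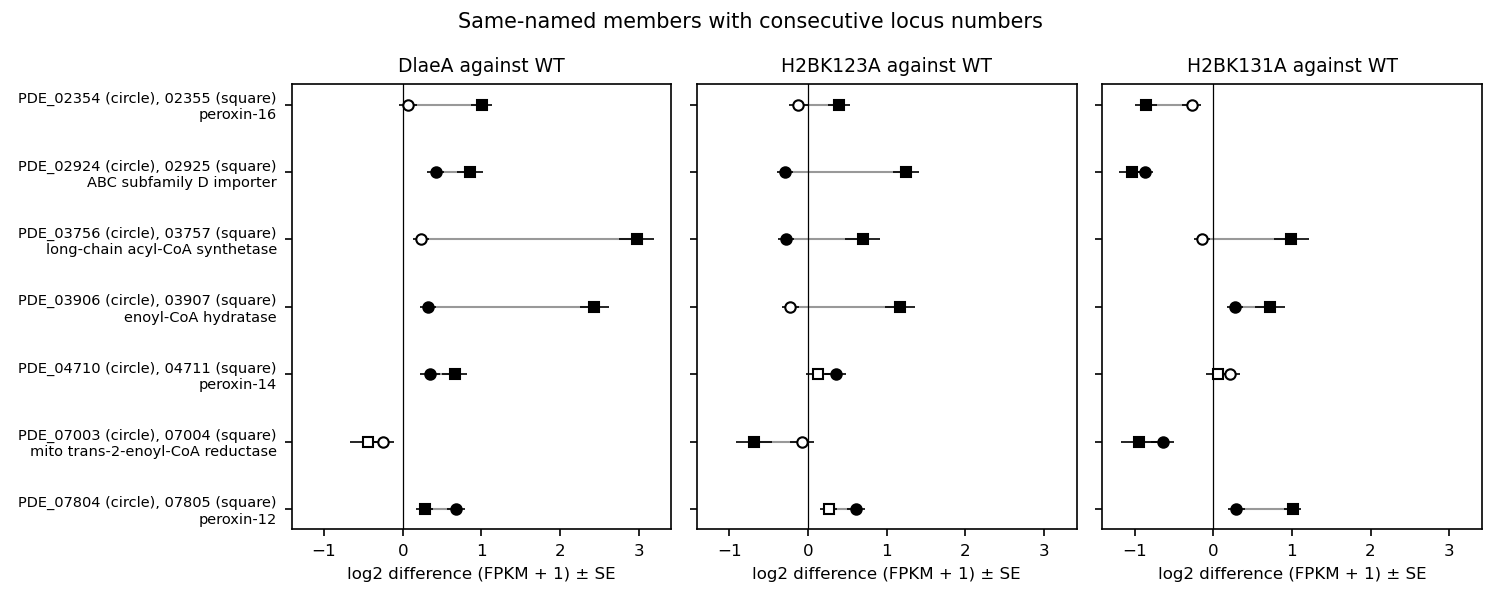
Log2 difference of FPKM + 1 from WT, with its SE, for the 7 pairs of same-named members with consecutive locus numbers (circle, lower number; square, higher number; filled, called). The synthetase pair PDE_03756 and PDE_03757 and the hydratase pair PDE_03906 and PDE_03907 lie furthest apart in DlaeA.

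Genes of neighbouring pathways were taken by name. Their counts stand beside shares over all tested genes of 46.3% higher and 23.6% lower in DlaeA, 33.5% and 13.1% in H2BK123A, and 40.6% and 30.2% in H2BK131A. The glyoxylate cycle, which turns acetyl-CoA into sugar precursors, has isocitrate lyase and malate synthase as its own enzymes, and 3 genes are described so. All 3 rose in DlaeA and in H2BK123A, and 1 of them rose in H2BK131A. The isocitrate lyase gene PDE_03451 had an FPKM of 198, 266 and 277 in DlaeA, 131, 92.5 and 109.6 in H2BK123A, 89.4, 62.6 and 67.3 in H2BK131A and 48.4, 79.2 and 41.9 in WT. The malate synthase gene PDE_03483 had an FPKM of 262, 298 and 329 in DlaeA, 182, 106 and 112 in H2BK123A, 102, 81.1 and 108 in H2BK131A and 66.6, 96.7 and 48.2 in WT. For PDE_03451 and PDE_03483 all DlaeA and H2BK123A libraries were above WT and H2BK131A overlapped with WT. PDE_03451 rose in DlaeA (2.15 ± 0.23, adjusted p = 7.8e-06) and H2BK123A (1.00 ± 0.23, adjusted p = 0.0047), and PDE_03483 in DlaeA (2.11 ± 0.25, adjusted p = 1.6e-05) and H2BK123A (0.92 ± 0.25, adjusted p = 0.011). In H2BK131A neither was called (0.40 for PDE_03451 and 0.50 for PDE_03483). The other isocitrate lyase gene, PDE_08297, had an FPKM of 167, 245 and 256 in DlaeA, 319.6, 222 and 219 in H2BK123A, 213, 179.8 and 237 in H2BK131A and 65.3, 66.4 and 45.2 in WT. Every mutant library was above every WT library for PDE_08297, which rose in DlaeA (1.89 ± 0.21, adjusted p = 1.0e-05), H2BK123A (2.09 ± 0.21, adjusted p = 2.4e-05) and H2BK131A (1.83 ± 0.21, adjusted p = 1.1e-05). The name search also caught PDE_00404, a 2-isopropylmalate synthase of leucine synthesis, which rose in DlaeA and H2BK131A, and PDE_06062, a methylisocitrate lyase of propionyl-CoA breakdown.

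Of the 2 gluconeogenesis genes both rose in DlaeA and H2BK123A and 1 in H2BK131A. PDE_08481 was higher than WT by 2.98 in DlaeA, 2.04 in H2BK123A and 1.69 in H2BK131A. Of the 3 genes of propionyl-CoA and methylcitrate metabolism, PDE_06062 among them, 2 rose in DlaeA and in H2BK123A, and 1 rose and 1 fell in H2BK131A. The H2BK123A libraries of PDE_06062, at 281, 107 and 101 FPKM, overlapped with WT, and H2BK123A 1 stood well above the rest of them. PDE_06062 rose most in H2BK131A, where it was at 2839.9, 3106 and 3473 FPKM, against 119, 18.9 and 45.3 in WT (6.03 ± 0.56, adjusted p = 1.8e-06). PDE_03501 rose in DlaeA (1.77) and H2BK123A (1.43), and PDE_04085 fell in H2BK131A (-1.02).

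Catalases break down the hydrogen peroxide that acyl-CoA oxidases release. Of 3 catalase genes 1 rose and 1 fell in DlaeA, 2 rose in H2BK123A and 2 rose in H2BK131A. PDE_05708 fell in DlaeA (-1.77) and rose in H2BK123A (2.42) and H2BK131A (2.41), and PDE_01404 rose in DlaeA (2.56) and H2BK131A (2.00).

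Of 10 genes of cytosolic fatty acid synthesis 2 rose and 5 fell in DlaeA, 2 rose and 4 fell in H2BK123A, and 5 rose in H2BK131A. The largest fall in DlaeA was that of PDE_01217, at 21.2, 27.9 and 29.2 FPKM in DlaeA and 1665, 117 and 1411 in WT. WT 2 was far below WT 1 and WT 3 for it, and the same library was lowest for PDE_01220 (1452, 187 and 1155 FPKM in WT). In H2BK131A PDE_02135 rose by 2.91 and PDE_02137 by 2.04. PDE_02135 was at 17.98, 17.25 and 14.45 FPKM in H2BK131A and 1.94, 0.55 and 1.78 in WT. Outside H2BK131A it reached 1 FPKM only in WT 1 and WT 3. It thus passed the filter through the strain in which it is high, so its call there is no independent evidence. PDE_02135 is counted among the 5 rises in H2BK131A. Triacylglycerol and acylglycerol lipases release fatty acids from stored fat. Of 6 tested genes of these names 3 rose and 2 fell in DlaeA, 4 rose and 1 fell in H2BK123A, and 1 rose and 2 fell in H2BK131A. The 3 lysophospholipase genes of the same search, which act on phospholipids, had 1 rise and 1 fall in DlaeA and 1 fall each in H2BK123A and H2BK131A. The triacylglycerol lipase gene PDE_09947 had an FPKM of 31.5, 49.5 and 51.5 in DlaeA, 109.8, 150.3 and 77.2 in H2BK123A, 4.9, 4.4 and 5.16 in H2BK131A and 3507, 631 and 2180.1 in WT. Every mutant library was below every WT library, and it fell in DlaeA (-5.26), H2BK123A (-3.95) and H2BK131A (-8.18).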

How the data were processed

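Per the labels, total RNA of mycelia was made into libraries of short tags cut with NlaIII and MmeI, whereas the table deposited by the authors holds FPKM, per the file headers. The aligner, counting tool and genome build were not given in the sources used here. No counts were available, so intervals for depth are not given, and the precision rests on 3 libraries per strain. Sample titles gave the strain and the replicate number.

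FPKM were transformed to log2(FPKM + 1) and fitted with limma 3.58.1 in R 4.3.3 (strain as the only term, empirical Bayes with a mean-variance trend, two-sided) on the 9431 genes at 1 FPKM or more in 3 or more libraries. Benjamini-Hochberg adjustment ran over all tested genes within each of 6 comparisons, with calls at an adjusted p under 0.05. Tables were handled in Python 3.11.15 with pandas 2.3.3, and the fit was tested on simulated data. The members and the lists of related genes were chosen with earlier results of these data known. Per-library values are given for the 5 called members with the largest rises and the 5 with the largest falls in each comparison with WT, and for peroxins called by at least 1 on the log2 scale. From the related lists up to 2 rises and 2 falls per comparison are named.

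Alternatives were a pseudocount of 0.1, no filter, median ratio and quantile scaling, per-strain weights, a fit of the 2 strains alone, a replicate block, averaging of DlaeA 2 and DlaeA 3 (the most similar pair of libraries), and leaving out each library. The reference table used here matched 0 loci, so coordinates and sequences are not used here.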

Additional observations from a re-analysis of the deposited data

How the results depend on the processing

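Over the pseudocount, filter, scaling, weights, fits of 2 strains alone, averaged DlaeA libraries and single libraries left out, no call on a member turned its direction, and no total of called members moved by over 1.5 times. Counts of falls did: the 7 in DlaeA became 12 with either scaling. The 5 in H2BK123A became 13 (median ratio), 11 (quantile), 1 (2 strains alone or per-strain weights), 3 (averaged DlaeA libraries or replicate block) and 1 to 3 (1 library left out). The falls over all tested genes also grew with scaling. In DlaeA 2225 became 3154 (median ratio) and 2813 (quantile), and in H2BK123A 1239 became 2235 and 2105. Calls held in every alternative for 43 of 55 members in DlaeA, 38 of 51 in H2BK123A and 39 of 50 in H2BK131A, each against WT, and for 48 of 57 in H2BK131A against H2BK123A. All members called by at least 1 on the log2 scale (23, 21, 19 and 29 in that order) held in every alternative. The median of the members moved with the scaling, whose own construction shifts all genes: to 0.36 (median ratio) and 0.43 (quantile) in DlaeA, to 0.43 and 0.45 in H2BK123A, and to -0.12 and -0.036 in H2BK131A, each against WT. H2BK123A against DlaeA moved to -0.0014 with median ratio scaling, and H2BK131A against DlaeA to -0.60 with a pseudocount of 0.1. With 1 library left out, the median was 0.52 to 0.69 in DlaeA against WT, 0.55 to 0.72 in H2BK123A, -0.079 to 0.14 in H2BK131A, -0.64 to -0.49 in H2BK131A against H2BK123A, -0.077 to -0.017 in H2BK123A against DlaeA and -0.61 to -0.48 in H2BK131A against DlaeA. The called members then numbered 50 to 61, 41 to 51, 43 to 55, 51 to 55, 29 to 35 and 56 to 60 in that order. The cause of these shifts was not tested.

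Replicate numbers did not pair the libraries: 18 correlations of same-numbered libraries ran from -0.22 to 0.21. With the replicate block 54 members were called in DlaeA, 48 in H2BK123A and 49 in H2BK131A against WT. With per-strain weights 48, 40 and 44 were called in that order. Depth limits cannot be stated without counts, and low genes such as PDE_00022 and PDE_06959 depend most on the added 1.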

Other observations

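A further 30 genes match the search but carry more than 1 KEGG name, so they were not counted as members. Some of their names conflict (an acyl-CoA oxidase name stands beside that of an RNA helicase, for example), and they are given by locus. Of the 29 tested, 21 rose and 4 fell in DlaeA, 20 rose and 2 fell in H2BK123A, and 10 rose and 10 fell in H2BK131A, each against WT. The shares over all tested genes were 46.3% higher and 23.6% lower in DlaeA, 33.5% and 13.1% in H2BK123A, and 40.6% and 30.2% in H2BK131A. The H2BK131A counts were thus close to those shares. PDE_08874, named both peroxin-11B, a peroxin of peroxisome division, and fungal type III polyketide synthase, had an FPKM of 133, 182 and 157 in DlaeA, 156, 155 and 144 in H2BK123A, 67, 49.3 and 58.1 in H2BK131A and 59.3, 109 and 69.6 in WT. It rose in DlaeA (1.01 ± 0.20, adjusted p = 8.2e-04) and H2BK123A (0.97 ± 0.20, adjusted p = 0.0024) and was not called in H2BK131A (-0.41 ± 0.20, adjusted p = 0.09). PDE_06332, which has multifunctional beta-oxidation protein among its names, had an FPKM of 22.3, 22.2 and 21.7 in DlaeA, 24.8, 22.1 and 23.6 in H2BK123A, 8.71, 6.44 and 7.24 in H2BK131A and 13.8, 14.9 and 10.9 in WT. PDE_06332 was above WT in all DlaeA and H2BK123A libraries and below it in all H2BK131A libraries (0.71 ± 0.13, adjusted p = 4.0e-04 in DlaeA, 0.80 ± 0.13, adjusted p = 4.9e-04 in H2BK123A and -0.74 ± 0.13, adjusted p = 2.7e-04 in H2BK131A).

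In H2BK131A the largest rises were those of PDE_01275 and PDE_03413. PDE_01275, with peroxin-3 and adenylosuccinate synthase as its names, had an FPKM of 4.2, 1.83 and 1.52 in DlaeA, 2.82, 2.24 and 1.76 in H2BK123A, 28.5, 23.8 and 30.3 in H2BK131A and 0.87, 1.29 and 0.94 in WT. The H2BK131A libraries were above all others, and PDE_01275 rose in H2BK131A (3.81 ± 0.24, adjusted p = 6.3e-08). PDE_03413, with enoyl-CoA hydratase among its names, had an FPKM of 0.81, 0.58 and 1.02 in DlaeA, 0.14, 0 and 0.15 in H2BK123A, 6.21, 7.04 and 5.39 in H2BK131A and 0, 0 and 0 in WT. It was listed at 0 in all WT libraries, so no fold is given. Outside H2BK131A it reached 1 FPKM only in DlaeA 3. It thus passed the filter through the strain in which it is high, so its call there is no independent evidence and no p-value is given. PDE_03413 is counted among the 10 rises in H2BK131A and, with a mean of 0.80 FPKM, among the 21 in DlaeA.

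Among the 10 falls in H2BK131A the largest was that of PDE_04476, with peroxin-3 and retrograde regulation protein 2 as its names. It had an FPKM of 29.2, 32.1 and 30.4 in DlaeA, 22.7, 35.1 and 26.3 in H2BK123A, 5.42, 4.2 and 4.69 in H2BK131A and 112, 42.4 and 81.8 in WT. PDE_04476 fell in H2BK131A (-3.69 ± 0.28, adjusted p = 2.7e-07), DlaeA (-1.23 ± 0.28, adjusted p = 0.0019) and H2BK123A (-1.37 ± 0.28, adjusted p = 0.0020). Also among the 10 falls were those of 3 further genes. PDE_04484, with enoyl-CoA hydratase and dienoyl-CoA isomerase among its names, had an FPKM of 20.8, 30.9 and 27.9 in DlaeA, 33.6, 35.3 and 34.8 in H2BK123A, 0.48, 0.38 and 0.52 in H2BK131A and 13.1, 22.6 and 10.6 in WT. The H2BK131A libraries were below all others, and PDE_04484 fell in H2BK131A (-3.42 ± 0.22, adjusted p = 8.2e-08). PDE_00142, with long-chain acyl-CoA synthetase among its names, had an FPKM of 121, 112 and 107 in DlaeA, 60, 67.4 and 62.6 in H2BK123A, 5.01, 3.49 and 4.53 in H2BK131A and 26, 40.5 and 27 in WT. The H2BK131A libraries were below all others, and PDE_00142 fell in H2BK131A (-2.57 ± 0.16, adjusted p = 6.1e-08). PDE_03982, with acyl-CoA oxidase among its names, had an FPKM of 93.3, 50.9 and 50.5 in DlaeA, 54.6, 64.9 and 59.6 in H2BK123A, 11.6, 8.04 and 7.86 in H2BK131A and 108, 96.5 and 76 in WT. The H2BK131A libraries were below all others, and PDE_03982 fell in H2BK131A (-3.22 ± 0.23, adjusted p = 1.7e-07). PDE_01391, named as acyl-CoA thioesterase, had an FPKM of 6.5, 8.53 and 8.02 in DlaeA, 54.6, 50 and 55.2 in H2BK123A, 48.1, 40 and 39.9 in H2BK131A and 39.1, 48.9 and 32.2 in WT. It fell in DlaeA (-2.23 ± 0.15, adjusted p = 1.3e-07), where all libraries were below those of the other 3 strains. The genes named here were chosen after their values were seen.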
